A study of Mus musculus with 2 samples.

Results

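Plasma EVs (extracellular vesicles) of C57BL/6 and BALB/c mice were searched for 6 mature miRNAs from 4 hairpins that reach Dicer without the usual cut by Drosha: mmu-miR-320-3p, mmu-miR-484, mmu-miR-877-5p, mmu-miR-877-3p, mmu-miR-1224-5p and mmu-miR-1224-3p. They were found by an exact match of the probe name, which gave 1 spot each, so that 6 of the 1900 miRNA spots of the array were taken. The name rule itself uses no measured value. The study asked which miRNAs differ between the EVs of C57BL/6 mice, which recover their blood flow after ligation of the femoral vessels, and those of BALB/c mice, which do not. Each strain was measured on 1 array that held Cy5-labelled RNA from a pool of 5 mice aged 8 weeks. The mice were bled 24 h after the left femoral artery and vein were ligated and cut. Both groups were ligated, no unligated mice were analysed here, and the spread between mice cannot be seen in a pool. With 1 array per strain there was no replicate, no SD and no test between strains.

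In the usual pathway the nuclear enzyme Drosha cuts a hairpin out of a long transcript, and Dicer then trims the hairpin to a duplex of a 5p and a 3p arm, of which one is mostly kept. A mirtron is a short intron whose ends are the ends of the hairpin, so that the splicing machinery does the work of Drosha. miR-877 and miR-1224 were among the first mammalian mirtrons to be described. miR-320 and miR-484 are made in a different way, as short transcripts that fold into the hairpin by themselves. The transcript of miR-320 keeps the cap at its 5′ end, and its 3p arm is the one that is mostly loaded into Argonaute. miR-484 and miR-320 are common in blood plasma and blood cells.

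The mature sequences below are those of RefSeq (GRCm38.p6), which matched 5 of the 6 miRNAs by name, all but miR-320-3p. They are shown because the arms differ sharply in their bases and in their spots, and the capitals mark the seed, bases 2 to 8.
mmu-miR-484: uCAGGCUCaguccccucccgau
mmu-miR-877-5p: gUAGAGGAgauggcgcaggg
mmu-miR-877-3p: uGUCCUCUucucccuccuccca
mmu-miR-1224-5p: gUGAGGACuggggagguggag
mmu-miR-1224-3p: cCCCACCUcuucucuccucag
No seed was shared between them or with another of the 1618 miRNAs on the array that had a RefSeq sequence. The 5p arms were rich in G, with 13 of 21 bases in miR-1224-5p and 11 of 20 in miR-877-5p. The 3p arms were rich in C, with 12 of 21 bases in miR-1224-3p and 12 of 22 in miR-877-3p, and each held 1 G. miR-484 held 10 C and 4 G in 22 bases.

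The hairpins of the mirtrons are shown next, with the first and last 2 bases in capitals, since an intron usually begins with GU and ends with AG.
Mir1224: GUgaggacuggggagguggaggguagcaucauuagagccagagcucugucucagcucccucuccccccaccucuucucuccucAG
Mir877: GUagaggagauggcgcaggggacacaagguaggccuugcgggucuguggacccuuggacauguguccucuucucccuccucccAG
Both are 85 bases long, and 30 of 1005 mouse hairpins in the same table (2.99%) have these ends, read on the hairpin's own strand. The 5p arm starts at base 1 of each hairpin. The 3p arm ends at base 85 in Mir1224 and at base 84 in Mir877. In the RefSeq genes, Mir1224 lies within the bounds of Vwa5b2 on chromosome 16 and Mir877 within those of Abcf1, which encodes a protein that takes part in the start of translation, on chromosome 17. Mir484 on chromosome 16 and Mir320 on chromosome 14 lie within no other gene. Next to Mir484 are Marf1 and Nde1, and next to Mir320 are Polr3d, which encodes a subunit of RNA polymerase III, and Phyhip. Whether a hairpin is exonic or intronic was not analysed here, since the table used holds no exons.

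The 3D-Gene array reads 1 spot per miRNA as fluorescence in arbitrary units. The background was the mean of the empty BLANK spots, left over once the 5% at either end were dropped, at 98.3 (SD 3.62, 806 spots) for C57BL/6 and 102 (SD 4.02, 806 spots) for BALB/c. A miRNA counted as detected when its spot lay more than 2 SD above this mean, above 106 and 111 in turn. Of 174 spots without a probe, 9 and 8 passed these thresholds. EV markers are proteins, so the label of the samples as EVs could not be checked on a miRNA array.

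miR-1224-5p was the only one of the 6 miRNAs seen in the EVs of C57BL/6 and BALB/c mice alike. miR-320-3p and miR-484 were detected in C57BL/6 EVs only, and both arms of miR-877 and the 3p arm of miR-1224 in neither. With the local background of each spot subtracted, the calls of miR-320-3p and miR-484 were lost and miR-1224-5p alone remained. The reported rule gave 3 of 6 detected in C57BL/6 EVs, where 33.6% of all miRNAs were detected, and 1 of 6 in BALB/c EVs, where 9.84% were. Detected only in C57BL/6 EVs were 2 of 6, against 24.2% of all miRNAs. With 6 miRNAs, these counts are not far from the shares of the whole array.

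**Figure D1:**
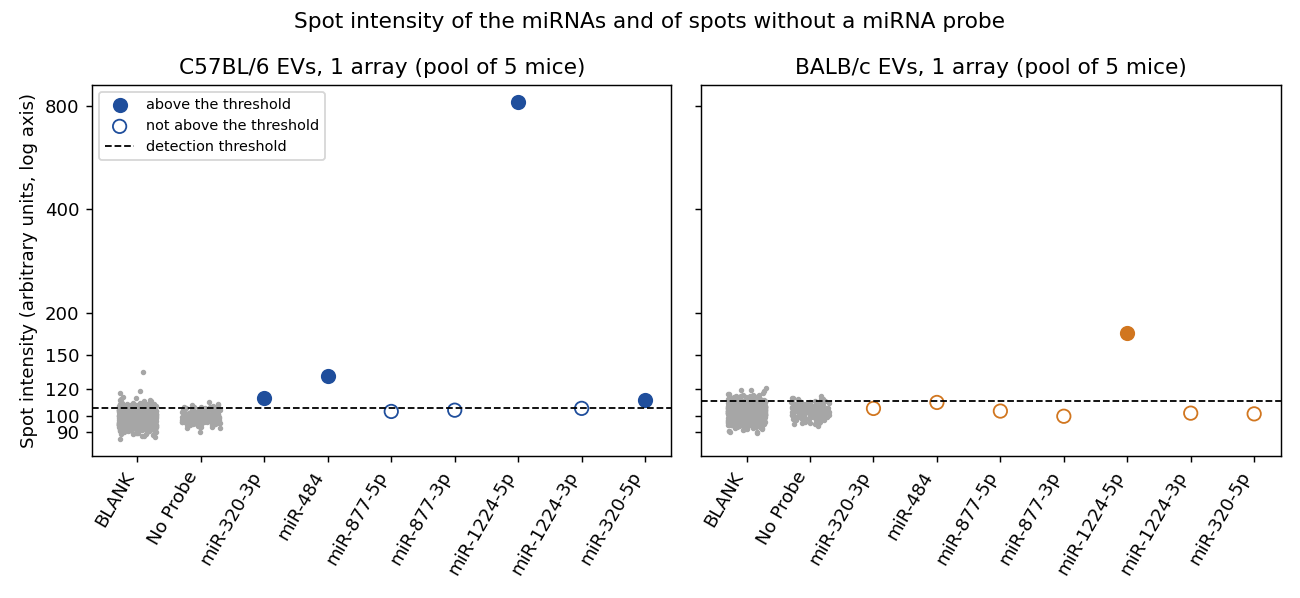
Spot intensity (log axis) on the C57BL/6 and the BALB/c array for the 6 miRNAs and miR-320-5p, beside the empty BLANK spots and the spots without a probe. Filled circles lie above the detection threshold (dashed line). Only miR-1224-5p, at 821 and 174, stands clear of the empty spots on both arrays.

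miR-320-3p, the arm that is usually kept, had a spot intensity of 113 in C57BL/6 EVs and 105 in BALB/c EVs. This was 4.06 SD above the background of the C57BL/6 array, where 4 of 896 BLANK spots were as bright or brighter, and 0.677 SD above that of the BALB/c array, where 262 were. The spot was thus dim on the first array and within the empty spots on the second. The opposite arm, miR-320-5p, is not among the 6 and was looked at after the values were seen. Its spot read 111 in C57BL/6 EVs, 3.64 SD above the background, and 101 in BALB/c EVs, below the mean of the BLANK spots. By the reported rule, both arms of miR-320 were therefore detected in C57BL/6 EVs and neither in BALB/c EVs. The call of miR-320-3p was lost with the local background subtracted, and that of miR-320-5p was not examined under the alternatives.

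miR-484 had a spot intensity of 130 in C57BL/6 EVs and 109.5 in BALB/c EVs. It lay 8.87 SD above the C57BL/6 background, where 1 BLANK spot was as bright or brighter. In the BALB/c EVs it came closest to the threshold of the 5 miRNAs not detected there, 1.75 SD above the background, and 90 BLANK spots were as bright or brighter.

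Whether miR-320-3p and miR-484 were higher in C57BL/6 EVs depended on the scale between the arrays. Since neither had a measured level in BALB/c EVs, only a lower bound could be formed, against the lowest signal detected on that array (8.08 above background). Without any scaling the bound was 3.97-fold for miR-484 and 1.82-fold for miR-320-3p, and on the authors' scale it was 4.76-fold and 2.18-fold. On the spike controls it was 2.20-fold and 1.01-fold. The arrays were scaled here to the same 75th percentile over the 178 miRNAs detected on both, which divides the ratio of C57BL/6 to BALB/c by 5.32. On this scale both signals fell below the BALB/c floor, so that no bound and no direction can be given for either miRNA. These bounds leave out spot noise. Fewer EVs and less of a miRNA in each EV cannot be told apart in such RNA.

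The arms of miR-877 were not told apart from empty spots. miR-877-5p read 103 in C57BL/6 EVs and 103 in BALB/c EVs, 1.32 and 0.220 SD above the background. miR-877-3p read 104 and 99.8, which was 1.56 and -0.656 SD from it. Of the 896 BLANK spots, 143 were as bright as miR-877-5p or brighter on the C57BL/6 array, and 105 as bright as miR-877-3p. Neither level nor ratio can be given, and an amount below what these spots can show is possible.

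The arms of miR-1224 behaved differently from each other. miR-1224-5p had a spot intensity of 821 in C57BL/6 EVs and 174 in BALB/c EVs. No BLANK spot and no spot without a probe was as bright on either array, and it ranked 31 among the 1900 spots of the C57BL/6 array and 38 among those of the BALB/c array. A rank orders the spots and not the amounts, since probes differ in how well they bind. miR-1224-3p read 105 in C57BL/6 EVs, 1.92 SD above the background and just under the threshold of 2 SD, and 102 in BALB/c EVs. With the spots without a probe as the background, an alternative added after the data were seen, miR-1224-3p was detected in C57BL/6 EVs as well. A difference in strain ratio between the arms of a hairpin could be formed for none of these hairpins, because no 3p arm was detected in BALB/c EVs.

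After scaling on the shared miRNAs, miR-1224-5p was 1.89-fold higher in C57BL/6 EVs (log2 ratio 0.92), a direction that turned when the local background was subtracted (-0.75). Shifting the 2 signals in opposite directions by 2 SD of the BLANK spots gave 1.68-fold to 2.15-fold, a range that covers spot noise alone and not the spread between mice or arrays. Its ratio ranked 43 of the 178 shared miRNAs. Of these, 41.6% were higher in C57BL/6 EVs on this scale, so that the direction by itself sets it apart little. Their median log2 ratio was -0.44, and miR-1224-5p lay 1.36 above it, a distance that no single factor between the arrays can change. Its ratio was 5.57-fold on the spike controls, 10.1-fold without scaling and 12.1-fold with the authors' scaling.

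The local background was high at this spot on the C57BL/6 array. The surroundings of the miR-1224-5p spot read 697 on the C57BL/6 array and 129 on the BALB/c array, while those of the BLANK spots had medians of 77.8 and 85.7. The BALB/c value lay at the upper end of the range around the BLANK spots. Of the 187 miRNAs detected on that array, 36 had a local background as high or higher, miR-1224-5p included. With this local background subtracted and the arrays scaled anew, the log2 ratio was -0.75, and it was -0.41 relative to the shared miRNAs. Without scaling it was 1.82. The local background was not subtracted in the reported values, and the authors' values were matched without it. On the C57BL/6 array the spot was 1.18 times as bright as its surroundings. Of the 638 miRNAs detected there, 163 had a ratio as low or lower, and their median was 1.27. On the BALB/c array it was 1.35 times as bright. Of the 187 miRNAs detected there, 139 had a ratio as low or lower, and the median of the 187 was 1.23. The median of 1.27 is that of the 638.

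**Figure D2:**
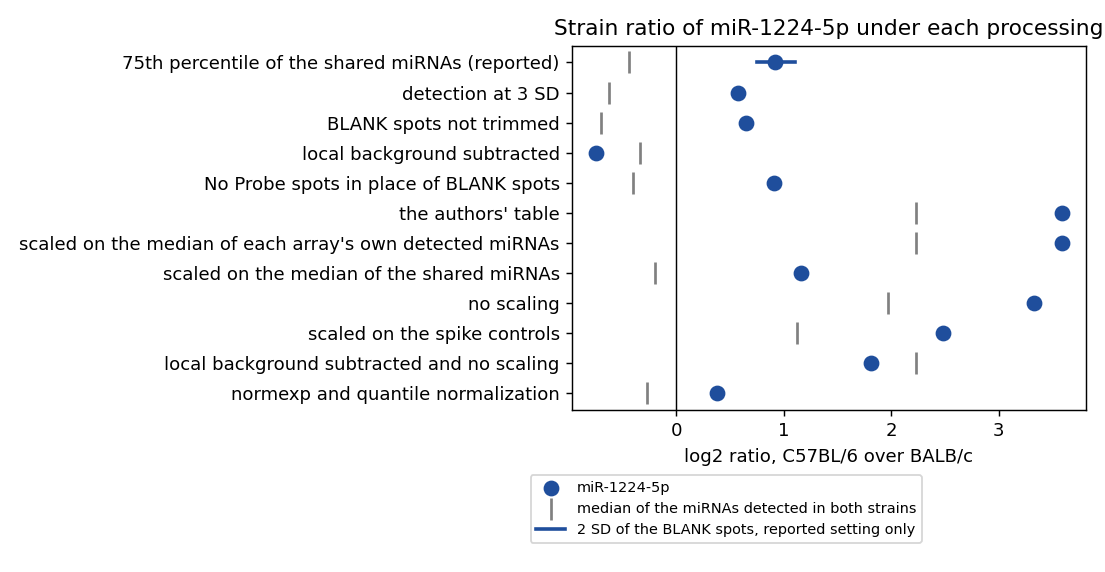
log2 ratio of C57BL/6 to BALB/c for miR-1224-5p (circles) and median of the miRNAs detected in both strains (vertical ticks) under each processing, with the 2 SD spot noise drawn for the reported setting. The circles run from -0.75 with the local background subtracted to 3.59 on the authors' scale.

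Of 44 other shared miRNAs whose BALB/c signal was within 2-fold of that of miR-1224-5p, the 3 with the nearest log2 ratio were miR-7648-3p at 0.91, miR-3547-5p at 1.01 and miR-326-5p at 1.07. They were picked from the 44 by this nearness, so it is not a result of its own, and it rests on 2 arrays. On the reported scale, none of the listed miRNAs of blood cells detected in both strains reached the ratio of miR-1224-5p. The ratios of these lists were not computed with the local background subtracted. miR-451a of red blood cells, which is cut by Argonaute 2 in place of Dicer, read 4180 in C57BL/6 EVs and 1603 in BALB/c EVs, and its log2 ratio was -0.97. The erythrocyte list had 5 of 6 miRNAs detected in both strains, with log2 ratios from -1.15 to -0.61, and the summed scaled signal of these was 2180 in C57BL/6 and 4191 in BALB/c. For the platelet list it was 5 of 5, from -1.68 to -0.17, with 339 and 580. Of 4 leukocyte miRNAs, miR-150-5p was detected in both strains, at 0.01, and miR-155-5p in neither. The leukocyte miRNAs miR-146a-5p and miR-142a-3p were detected in C57BL/6 EVs only, with spots of 113 and 108 there. Of 2 liver miRNAs, miR-192-5p was detected in both strains, at -1.92, and miR-122-5p in C57BL/6 EVs only. Of 3 muscle miRNAs, miR-133a-3p and miR-1a-3p were detected in both, at -1.92 and -3.32, and miR-206-3p in neither. On this scale miR-1224-5p thus lay above 0, unlike with the local background subtracted. The erythrocyte and platelet miRNAs detected in both strains lay below 0, and miR-150-5p of the leukocyte list at 0.01. Of all 1900 miRNAs, 178 were detected in both strains, and 104 of these lay below 0 as well. The 95 shared miRNAs numbered up to miR-1224 had a median of -1.09, so ratios below 0 are not particular to the blood cell lists. The part of other cells in the ratio of miR-1224-5p was not tested.

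**Figure D3:**
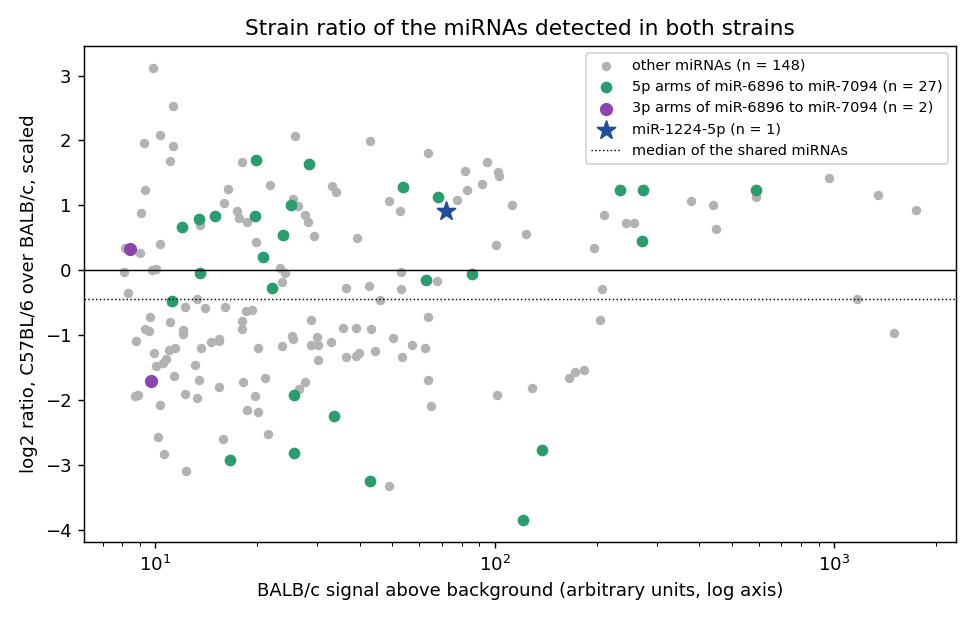
log2 ratio of C57BL/6 to BALB/c after scaling, against the BALB/c signal above background (log axis), for the 178 miRNAs detected in both strains. miR-1224-5p (star) lies at 0.92 (-0.75 with the local background subtracted), above the median of -0.44 (dotted line) and amid the upper part of the 5p arms of miR-6896 to miR-7094.

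Of 6 other listed miRNAs made without Drosha or Dicer, 4 were detected in C57BL/6 EVs and 1 in BALB/c EVs, against 33.6% and 9.84% of all miRNAs. Detected only in C57BL/6 EVs were 3, against 24.2% of all miRNAs. With 6 miRNAs, no difference from the array is read from these counts. The detected spots other than that of miR-451a were dim. miR-702-5p and miR-702-3p, the arms of another mirtron, read 108 and 110.5 in C57BL/6 EVs and were detected there only. So was miR-1983, which comes from a tRNA, at 111. miR-1839-5p and miR-1839-3p, which come from a small nucleolar RNA, were detected in neither strain, and miR-451a in both.

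The large set of miR-6896 to miR-7094, many of which were described as mirtrons, showed the same order of arms as miR-1224. Of their genes, 199 of 201 (99.0%) lie inside a protein-coding gene, although 21 of the 180 hairpins with a sequence (11.7%) begin with GU and end with AG as annotated. In the C57BL/6 EVs, 105 of 202 5p arms and 81 of 201 3p arms were detected. In the BALB/c EVs it was 28 and 2. Among the 200 hairpins with both arms on the array, 26 had only the 5p arm detected in BALB/c EVs, 0 only the 3p arm, 2 both and 172 neither. In the C57BL/6 EVs the numbers were 57, 33, 48 and 62. miR-1224 belonged with the first of these groups in both strains and miR-877 with the last. Over all 726 hairpins with both arms on the array, 85 had only the 5p arm and 36 only the 3p arm detected in BALB/c EVs, and in C57BL/6 EVs the numbers were 146 and 125. The 27 5p arms of miR-6896 to miR-7094 detected in both strains had a median log2 ratio of 0.45, running from -3.84 to 1.70, and 8 of them were at or above miR-1224-5p. The brightest 3p arm of the set read 165 in C57BL/6 EVs and the brightest 5p arm 7445. In the order in which miRNAs were numbered, the 95 shared miRNAs up to miR-1224 had a median log2 ratio of -1.09, and 11 of them were at or above miR-1224-5p, itself included. The 83 with higher numbers had a median of 0.73. These medians hold on the reported scale and were not computed with the local background subtracted, where miR-1224-5p turned to -0.75.

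**Figure D4:**
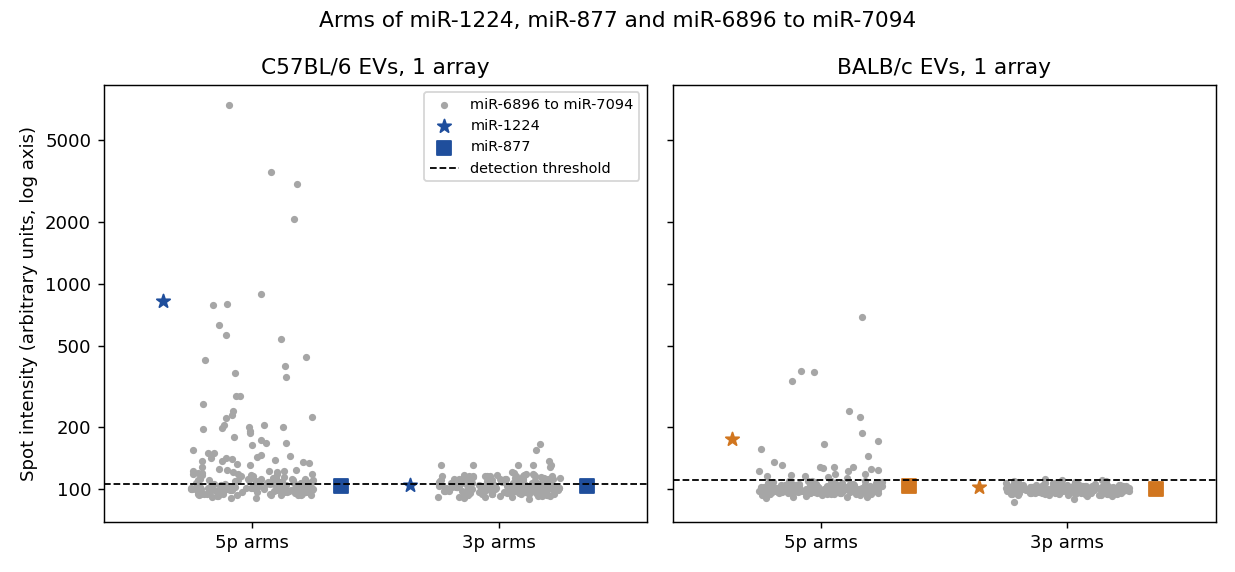
Spot intensity (log axis) of the 5p and 3p arms of miR-6896 to miR-7094 (grey), miR-1224 (star) and miR-877 (square) on each array. Of the 202 5p arms, 105 in C57BL/6 and 28 in BALB/c lie above the threshold (dashed line), some far above it. Their medians are 106 and 101, near or below it. The brightest 3p arms read 165 and 112. In C57BL/6, miR-1224-5p lies at 821 and miR-1224-3p at 105.

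The spots of miRNAs with over 50% G were brighter and more often detected than those of miRNAs with less G. The classes below were set after the values were seen and are a description. Of 78 miRNAs with over 50% G, 64 (82.1%) were detected in C57BL/6 EVs and 35 (44.9%) in BALB/c EVs, against 34.0% and 9.83% of all 1618 with a sequence. miR-1224-5p, with 61.9% G, was among the detected ones in both, and 12 of the 1618 miRNAs had a share of G as high or higher, itself included. miR-877-5p, with 55% G, was among the 14 of this class not detected in C57BL/6 EVs. The 35 miRNAs of the class detected in both strains had a median log2 ratio of 1.07, and 24 of them had a higher ratio than miR-1224-5p. Its ratio of 0.92 lay below the median of the class. With the normexp correction the median was 0.55 and miR-1224-5p was at 0.38. With the local background subtracted, 26 miRNAs of the class were detected in both strains. Their median was 0.48, and miR-1224-5p was at -0.75. Across the 151 shared miRNAs with a sequence, the share of G and the log2 ratio had a Pearson's r of 0.69 and a Spearman's rho of 0.73. These are points of the same 2 arrays and not independent replicates. With the local background subtracted r was 0.66 over 64 miRNAs, and with the normexp correction and quantile normalization it was 0.62.

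At the other end, miR-877-3p with 4.55% G, miR-1224-3p with 4.76% and miR-484 with 18.2% fell in the class of at most 20% G. Of its 509 miRNAs, 163 (32.0%) were detected in C57BL/6 EVs and 27 (5.30%) in BALB/c EVs. Of the 1031 with over 20% and up to 50% G, it was 323 (31.3%) and 97 (9.41%). Below 50% G the detected share in C57BL/6 EVs thus hardly changed with G. miR-877-3p, miR-1224-3p and miR-484 were also among the 198 miRNAs with over 40% C. Of those, 122 (61.6%) were detected in C57BL/6 EVs and 6 (3.03%) in BALB/c EVs. miR-484 was detected in the first and not in the second, and miR-877-3p and miR-1224-3p were detected in neither. The part of base composition in the calls and ratios of the 6 miRNAs was not tested.

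**Figure D5:**
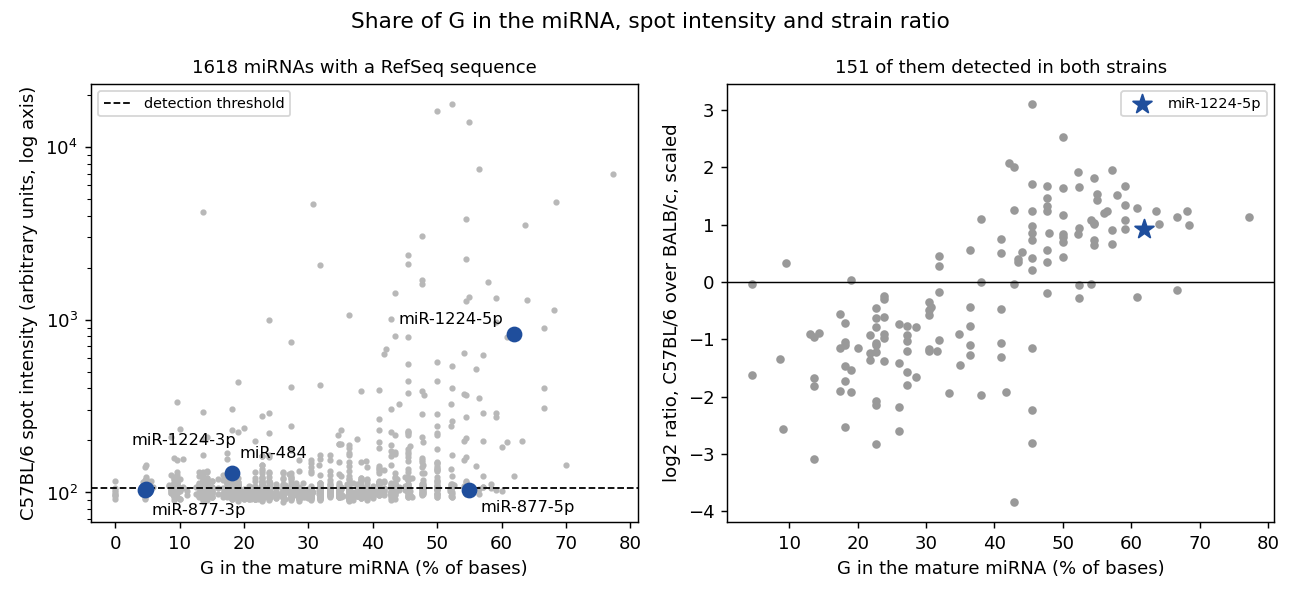
Share of G in the mature miRNA against the C57BL/6 spot intensity (left, log axis, 1618 miRNAs) and against the scaled log2 ratio of C57BL/6 to BALB/c (right, 151 miRNAs detected in both strains). miR-1224-5p, at 61.9% G, lies among the bright spots and the ratios above 0 (below 0 with the local background subtracted), while miR-877-5p, at 55% G, lies just below the threshold (dashed line).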

How the data were processed

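The authors deposited 2 scanner files, 1 per array, with the median intensity of 3200 spots and of their surroundings at 635 nm, without background subtraction, merged from 3 gains per the file headers. The authors' table holds 1 normalized intensity per detected miRNA; its steps are not given in the sources used here. Background subtraction as below and 1 factor per array, which sets the median to 25, gave its values, and 0 calls differed. The paper describes EVs and an exosome RNA kit, while the labels name cells and another kit.

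BLANK spots were trimmed by 45 at each end, the mean was subtracted, detection was set at 2 SD, and the arrays were scaled on the 75th percentile of 178 shared miRNAs. The number of arrays, 1 per strain, limits the precision. Named were the 6 miRNAs, the miRNAs of the fixed lists, the 3 nearest by ratio and the genes around them. Members, lists and alternatives were chosen with earlier results of these data known. The alternatives were detection at 3 SD, untrimmed BLANK spots, local background, other scalings, the authors' table, and normexp on the spot intensities (offset 50) with quantile normalization. The functions were tested on simulated data. RefSeq tables gave sequences for 1618 of 1900 miRNAs (85.2%), and no coordinates are given because no build is named for the array. Python 3.11.15, numpy 2.4.6, pandas 2.3.3, scipy 1.17.1, matplotlib 3.10.9, R 4.3.3 and limma 3.58.1 were used.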

Additional observations from a re-analysis of the deposited data

Results flagged for a closer look

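The local background column, which was not used for the reported levels and enters as an alternative only, held a signal beside miR-1224-5p. Around this spot it was 697 on the C57BL/6 array, while the highest value around any BLANK spot there was 142. Among the 638 miRNAs detected on that array, 22 had a local background as high or higher, itself included.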

How the results depend on the processing

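The calls of the 6 miRNAs kept their numbers at 3 SD, with untrimmed BLANK spots and in the authors' table. With the local background subtracted, 1 miRNA, miR-1224-5p, was detected in the C57BL/6 EVs, and 0 were detected there only. With the spots without a probe, added after the data were seen, the numbers were 4 and 3. The log2 ratio of miR-1224-5p was 0.58 at 3 SD, 0.64 with untrimmed BLANK spots, 1.16 on the median of the shared miRNAs, 2.48 on the spike controls, 3.33 with no scaling, 3.59 in the authors' table and with each array set to its own median, 0.38 with normexp and quantile normalization, -0.75 with the local background subtracted, and 1.82 with that and no scaling, which was added later. Relative to the shared miRNAs it was 0.65 with normexp and quantile normalization and -0.41 with the local background subtracted, scaled or not. The cause was not tested. The 5p arms of miR-6896 to miR-7094 detected in C57BL/6 numbered 59 in place of 105 with the local background subtracted, and the 3p arms 12 in place of 81. In BALB/c the 3p arms numbered 0 at 3 SD, with untrimmed BLANK spots and with the local background subtracted. No replicate could be left out and no paired analysis was possible because each strain has 1 array. No arm difference was computed for miR-320, miR-877 or miR-1224, as none had both arms detected on both arrays.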
